A study of Caenorhabditis elegans with 16 samples.

Results

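The inducible heat shock genes examined here are 10 genes of Caenorhabditis elegans, taken by symbol from a table of 46726 genes. They comprise 6 small heat shock genes of the hsp-16 family (hsp-16.1, hsp-16.11, hsp-16.2, hsp-16.41, hsp-16.48 and hsp-16.49), 3 inducible HSP70 genes (hsp-70, F44E5.4 and F44E5.5) and hsf-1, the gene of their transcriptional regulator. The set was selected on an earlier reading of these data, the log2 fold changes of edc-3 against wild type, in which cytosolic heat shock genes lay mostly above 0. Values of edc-3 against wild type are therefore given as a description with no test, and so are the comparisons in which the edc-3 libraries enter again. The wild-type libraries entered that choice too, so the signs and sizes of the other comparisons with wild type are not independent of it.

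RNA sequencing covered mixed-stage embryos of 4 genotypes, starting from total RNA: WT (strain N2), edc-3(ok1427) (strain RB1311), edc-4(qe49) (strain FD135) and the double mutant edc-3(ok1427); edc-4(qe49) (strain FD146 in the sample labels). Each genotype was 1 strain with 4 independent biological replicates, numbered 2 to 5, so that an allele cannot be told apart from other differences between the strains. All animals were grown in parallel at 16 °C on OP50 bacteria, received no treatment and hence no heat shock, and embryos were collected by bleaching and frozen. The proteins of both genes promote decapping, the step that exposes an mRNA to decay from its 5' end, and reside in processing bodies.

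Heat shock proteins are molecular chaperones. The HSP-16 proteins hold unfolding proteins in a soluble state without using ATP, and the HSP70 proteins bind and release unfolded clients in cycles of ATP hydrolysis. In C. elegans the hsp-16 and inducible HSP70 genes are barely transcribed in unstressed animals and respond strongly to heat, through binding of the HSF-1 protein to heat shock elements in their promoters. HSF-1 itself is present without stress and also acts in development, so the level of its mRNA and the levels of its targets are separate quantities.

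Libraries held 34.1 to 52.9 M counts. The edc-4 transcript was at 20.4 to 35.4 CPM (counts as deposited, scaled to a common library size with TMM factors) in the 8 libraries with the edc-4 allele and at 139 to 198 CPM in the others. The edc-3 transcript lay at 57.4 to 69.3 CPM in its single mutant, at 65.01 to 82.5 CPM in the double mutant and at 70.8 to 97.8 CPM in WT libraries, so that the double mutant overlapped WT, but a whole-gene count does not show a deletion inside a gene and so does not check that genotype. Of the markers of other sources, the 16 early zygotic and 12 muscle genes all passed the filter on low counts, whereas 1 of 6 vitellogenin genes and 3 of 38 sperm genes did, and the summed vitellogenin level was at most 2.74 CPM. A stage score, the mean log2 CPM of the muscle list minus that of the early zygotic list, ran from 3.54 in double mutant replicate 4 to 6.19 in WT replicate 4. In bulk RNA, fewer cells with a transcript and less of it per cell cannot be told apart.

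The 9 inducible genes lie in head-to-head pairs or alone. On chromosome V (WBcel235), hsp-16.2 (1804334 to 1804957, minus strand) and hsp-16.41 (1805178 to 1805875, plus strand) point away from each other across a gap of 220 bp. Also on chromosome V, a cluster of 3.31 kb holds hsp-16.1 (9087293 to 9087782), hsp-16.48 (9088131 to 9088617), hsp-16.49 (9089280 to 9089766) and hsp-16.11 (9090077 to 9090604) as an inverted duplication, with gaps of 348 and 310 bp within its pairs. The current annotation names hsp-16.11 as a second hsp-16.1 and hsp-16.49 as a second hsp-16.48, and reads that match both copies may be split between them or dropped, depending on a counting setting that is not given in the sources used here. Their values are accordingly uncertain.

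On chromosome II, F44E5.4 (11757107 to 11759311, minus strand) and F44E5.5 (11759662 to 11761861, plus strand) diverge from a gap of 350 bp. They are closely related in sequence, and a split of shared reads between them is also possible. The hsp-70 gene (chromosome I, 9320325 to 9322519, minus strand) lies wholly within uggt-2 on the other strand, with 0 bp shared between their exons. The level of uggt-2 ranged from 1.49 to 2.68 CPM and was 1.49 CPM, its lowest, in the library with the most hsp-70. The hsf-1 gene (chromosome I, 11953507 to 11963085, minus strand) overlaps no annotated gene, and no hsp-16 gene, F44E5.4 or F44E5.5 does.

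All 10 genes passed the filter on low counts, with 16880 genes tested in all. Compared per length, hsf-1 had the highest mean level, 38.8 CPM per kb of exon. It was followed by hsp-16.41 at 27.8, hsp-16.2 at 20.03, F44E5.5 at 9.74, F44E5.4 at 6.38 and hsp-70 at 2.54 CPM per kb. The genes of the duplicated cluster were far lower, hsp-16.48 at 1.45, hsp-16.49 at 0.924, hsp-16.1 at 0.374 and hsp-16.11 at 0.320 CPM per kb. As a result hsp-16.2 and hsp-16.41 made up 93.2 to 97.1% of the summed hsp-16 CPM in every library. For scale, the constitutive HSP70 gene hsp-1 stood at 377 CPM per kb and the HSP90 gene daf-21 at 507 CPM per kb.

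The small heat shock genes hsp-16.2 and hsp-16.41 varied widely between libraries of the same genotype. In replicates 2, 3, 4 and 5, the WT libraries had 10.4, 7.20, 21.5 and 5.43 CPM of hsp-16.2, and the edc-3 libraries had 14.3, 10.6, 17.9 and 10.9 CPM. In the same order the edc-4 libraries had 7.19, 4.81, 10.6 and 5.89 CPM, and those of the double mutant 8.80, 5.08, 14.8 and 29.8 CPM. The libraries numbered 4 were the highest of WT, edc-3 and edc-4, while replicate 5 was the highest of the double mutant and the lowest of WT. Of its neighbour hsp-16.41 the WT libraries had 15.5, 11.4, 29.5 and 7.20 CPM, and the edc-3 libraries 22.4, 17.4, 32.5 and 17.97 CPM. Those of edc-4 had 12.03, 6.79, 18.3 and 7.77 CPM, and those of the double mutant 14.7, 7.98, 22.6 and 40.9 CPM. The same libraries were thus high and low for both genes, and every pair of genotypes overlapped.

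The inducible HSP70 genes followed the same libraries. For hsp-70 the WT libraries held 4.69, 2.64, 8.82 and 2.33 CPM and the edc-3 libraries 7.20, 4.47, 10.8 and 4.93 CPM. The edc-4 libraries held 2.90, 2.43, 4.51 and 1.94 CPM and those of the double mutant 4.31, 2.33, 5.56 and 13.6 CPM of hsp-70. Again WT replicate 4, edc-3 replicate 4 and double mutant replicate 5 stood out. Of F44E5.4 the WT libraries had 13.3, 8.37, 15.3 and 7.34 CPM, and the edc-3 libraries 18.3, 13.9, 20.3 and 12.96 CPM. Those of edc-4 had 11.6, 8.48, 12.7 and 6.90 CPM, and those of the double mutant 12.26, 9.29, 17.5 and 25.6 CPM. The edc-3 values lay above those of edc-4 with no overlap. Of F44E5.5 the WT libraries had 19.7, 13.1, 22.9 and 11.52 CPM, and the edc-3 libraries 28.3, 20.95, 31.4 and 20.9 CPM. Those of edc-4 had 17.8, 12.54, 19.5 and 10.3 CPM, and those of the double mutant 17.8, 13.7, 29.4 and 35.7 CPM. Here too edc-3 and edc-4 did not overlap, and the other pairs of genotypes did.

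**Figure D1:**
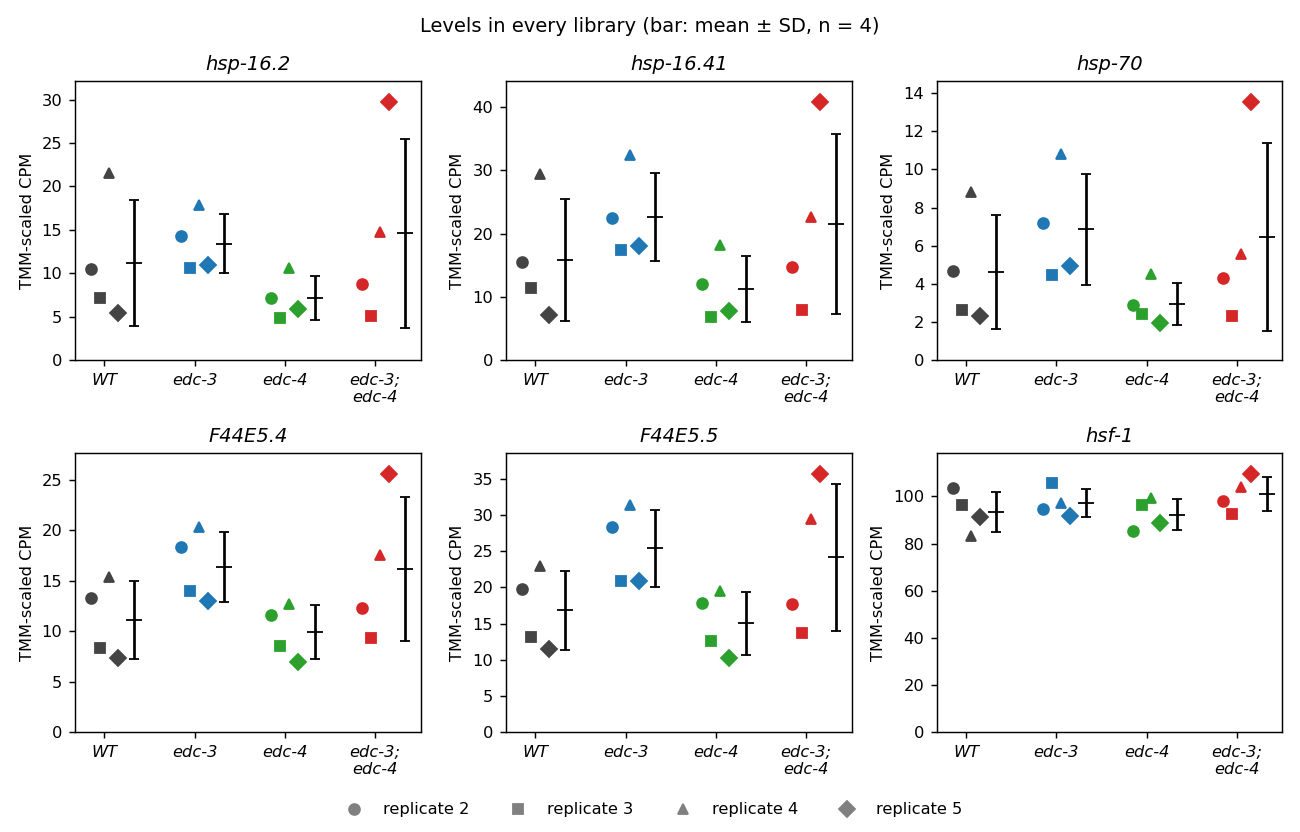
TMM-scaled CPM (y axes, from 0) of 6 genes in each of the 16 libraries, by genotype (x axes), with a symbol per replicate number and the mean ± SD of 4 libraries beside the points. The inducible genes spread several-fold within genotypes, with double mutant replicate 5 highest (29.8 CPM of hsp-16.2), whereas hsf-1 stays between 83.0 and 109.6 CPM.

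The regulator hsf-1 did not share this spread. The WT libraries had 103, 96.3, 83.0 and 91.1 CPM, and the edc-3 libraries 94.6, 106, 97.2 and 91.9 CPM. Those of edc-4 had 85.2, 96.2, 99.1 and 88.5 CPM, and those of the double mutant 97.95, 92.6, 104 and 109.6 CPM. The highest library exceeded the lowest 1.32-fold, against 6.19-fold for hsp-16.2, 6.02-fold for hsp-16.41, 6.97-fold for hsp-70, 3.71-fold for F44E5.4 and 3.47-fold for F44E5.5. WT replicate 4, among the libraries with the most hsp-16.2, had the lowest hsf-1 level of all 16, and double mutant replicate 5 had the highest of both. The lowest place depended on scaling. Without TMM factors WT replicate 4 was at 90.06 CPM of hsf-1, and double mutant replicate 3 was lowest, at 85.9 CPM.

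The cluster copies were close to the limit of counting. Over the 16 libraries hsp-16.1 had 1 to 15 counts, hsp-16.11 1 to 14, hsp-16.49 2 to 36 and hsp-16.48 12 to 47. With genotypes in the order WT, edc-3, edc-4 and double mutant, mean levels of hsp-16.48, the best counted of them, were 0.533 ± 0.229, 0.781 ± 0.236, 0.468 ± 0.257 and 0.717 ± 0.301 CPM (SD, n = 4 each). These groups overlapped. For hsp-16.49 the means were 0.209 ± 0.140, 0.450 ± 0.083, 0.435 ± 0.277 and 0.502 ± 0.250 CPM (SD, n = 4 each), with WT replicate 2 at 2 counts. Unlike for the other inducible genes, its mean was lowest in WT. The means of hsp-16.1 were 0.107, 0.245, 0.103 and 0.20 CPM, and those of hsp-16.11 were 0.155, 0.221, 0.0954 and 0.139 CPM.

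The replicate spread of the inducible genes was large for their level. The biological coefficient of variation within genotypes, estimated by edgeR, was 0.437 for hsp-16.2, 0.433 for hsp-16.41 and 0.459 for hsp-70, where the median over all tested genes was 0.194. Of the 500 tested genes nearest in mean CPM to each of these 3 genes, all 500 had a smaller coefficient. F44E5.4 and F44E5.5 had 0.290 and 0.283, above 478 and 487 of their 500 nearest genes, and hsf-1 had 0.107, above 78 of 500. As an alternative chosen after seeing the data, the fit was repeated without WT replicate 4 and double mutant replicate 5. They held the highest levels of these 3 genes in their genotypes. The edc-3 replicate 4, which stayed in, held more hsp-16.41 and hsp-70 than WT replicate 4. The coefficients were then 0.306 for hsp-16.2, 0.340 for hsp-16.41 and 0.331 for hsp-70, still above 492, 499 and 494 of the 500 nearest genes. Among constitutive chaperones the coefficient was 0.185 for hsp-1, 0.162 for the HSP110 gene hsp-110 and 0.144 for daf-21. These values describe the libraries and carry no test.

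**Figure D2:**
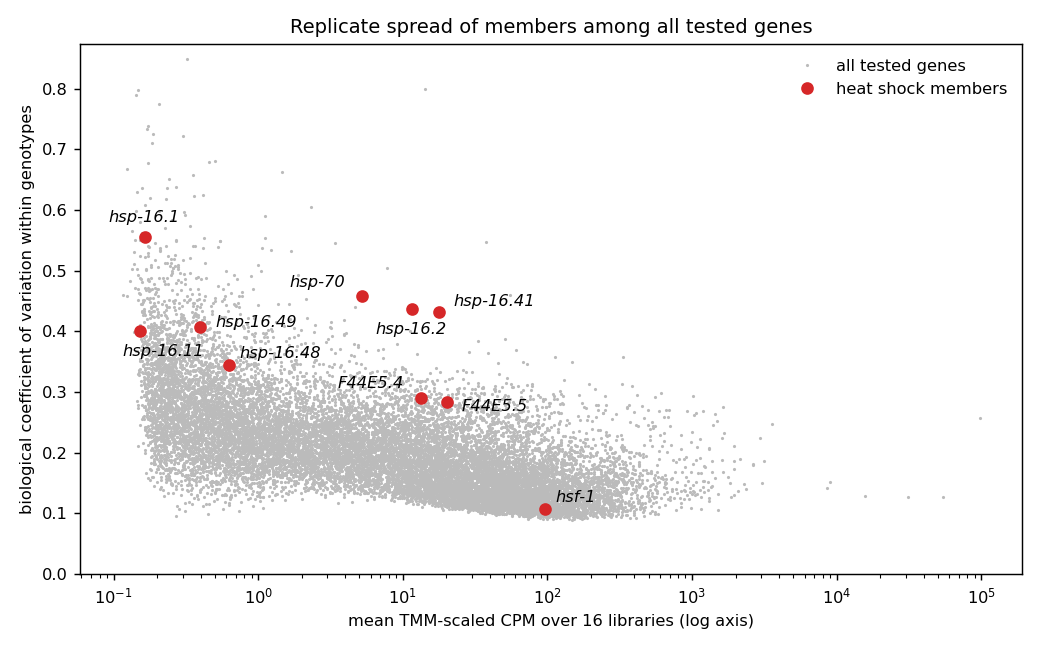
Biological coefficient of variation within genotypes (y axis) against mean TMM-scaled CPM over 16 libraries (x axis, log scale) for all 16880 tested genes (grey) and the 10 heat shock genes (red). hsp-70, hsp-16.2 and hsp-16.41, at 0.433 to 0.459, stand above genes of like level, and hsf-1, at 0.107, lies near the lower edge.

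The 5 well-counted inducible genes rose and fell together from library to library. Over the 16 libraries the Pearson correlation of log2 CPM between them was 0.918 to 0.993 in 10 pairs (Spearman's rho 0.900 to 0.988). After the genotype means were removed it was 0.926 to 0.990 (rho 0.888 to 0.968), and without WT replicate 4 and double mutant replicate 5 it was 0.937 to 0.994 (rho 0.877 to 0.982, n = 14). The genes lie on 3 chromosomes, and the points share a library, its scaling and, for the paired genes, possibly reads. The cluster copies followed them more loosely, with r of 0.50 to 0.912 (rho 0.582 to 0.909) in 20 pairs. The correlation of hsf-1 with the 5 genes was 0.335 to 0.465 (rho 0.353 to 0.491), and 0.195 to 0.294 (rho 0.185 to 0.332) within genotypes. Without the same pair of libraries it was 0.472 to 0.503 (rho 0.495 to 0.578, n = 14).

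**Figure D3:**
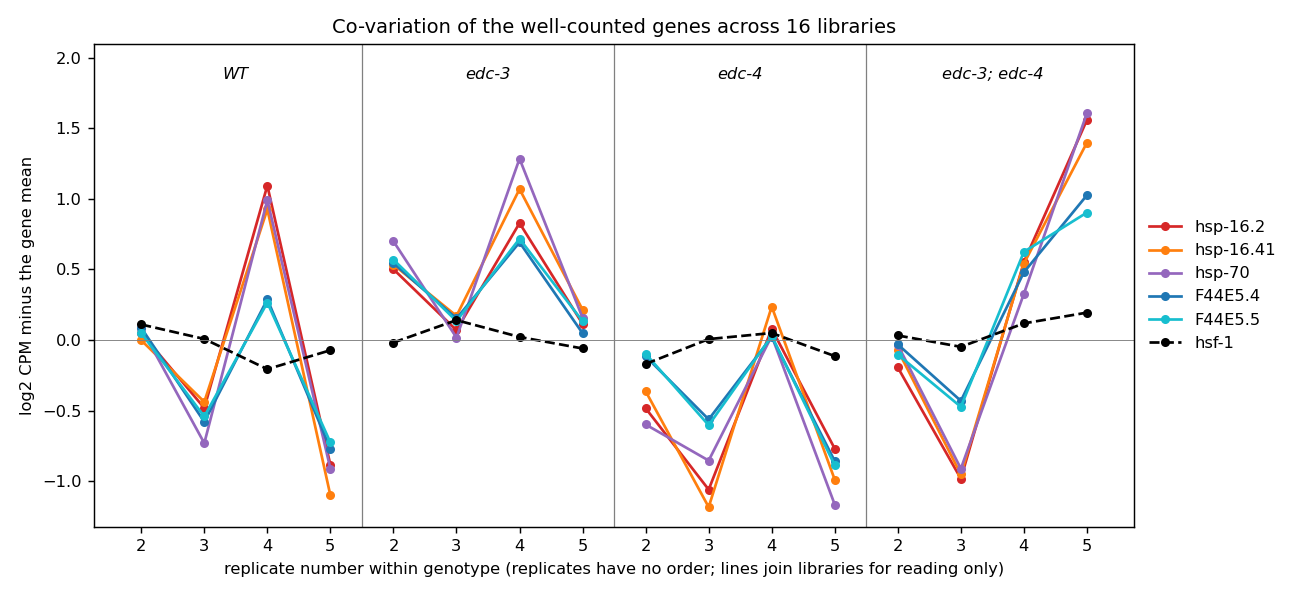
Log2 CPM minus each gene's mean over 16 libraries (y axis) for 5 inducible genes and hsf-1 (dashed), with the libraries of each genotype side by side (x axis, replicate number; lines are for reading only). The inducible genes move together, from low in edc-4 replicates 3 and 5 to high in double mutant replicate 5, and hsf-1 stays near 0.

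Within the divergent pairs the proportion of the partners was nearly fixed. The count of hsp-16.41 over that of hsp-16.2 had a median of 1.57 and ranged from 1.32 to 1.82, a coefficient of variation of 9.78% over the 16 libraries, while the CPM of the genes themselves varied by 55.2% and 58.8%. The ratio of F44E5.5 to F44E5.4 had a median of 1.52 and ranged from 1.40 to 1.68, a coefficient of variation of 4.43%, against 37.3% and 38.2% for the genes. Median ratios by genotype ran from 1.43 in WT to 1.65 in edc-3 for hsp-16.41 over hsp-16.2, and from 1.46 in the double mutant to 1.55 in edc-3 for F44E5.5 over F44E5.4. In the duplicated cluster the ratios spread widely, from 2.5 to 22-fold for hsp-16.48 over hsp-16.1, at counts too low to read.

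**Figure D4:**
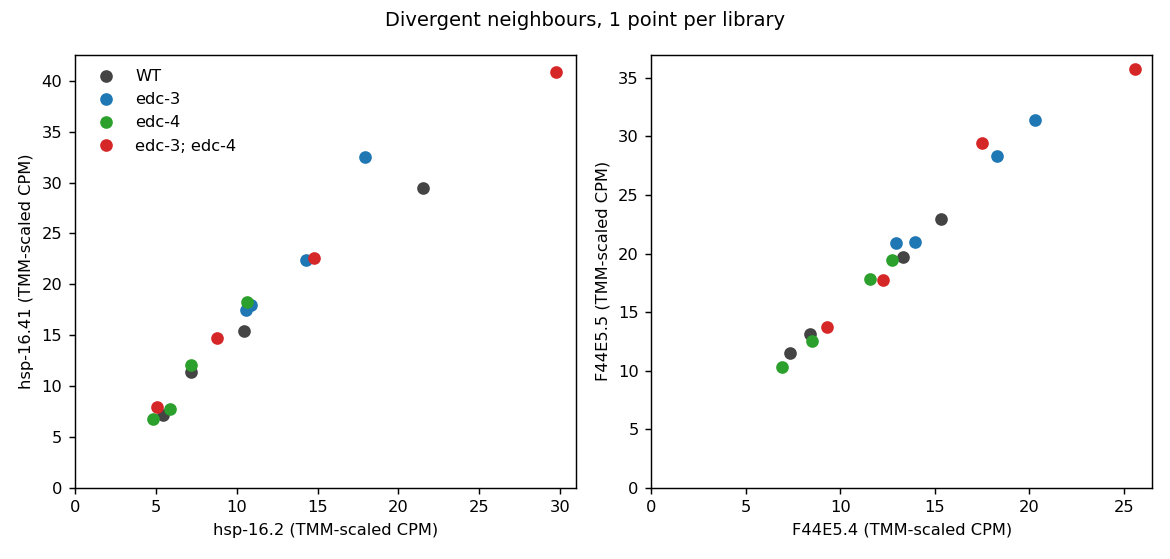
Level of each divergent partner against the other in TMM-scaled CPM, 1 point per library coloured by genotype: hsp-16.41 (y) against hsp-16.2 (x) on the left and F44E5.5 (y) against F44E5.4 (x) on the right. Points of all 4 genotypes lie along a common line, with count ratios of 1.32 to 1.82 and 1.40 to 1.68.

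Embryo age was examined as a measure that could run beside these levels. The stage score had Pearson's r of -0.14 with hsp-16.2 (rho -0.15), -0.20 with hsp-16.41 (rho -0.19), -0.11 with hsp-70 (rho -0.044), -0.19 with F44E5.4 (rho -0.11) and -0.23 with F44E5.5 (rho -0.12), over 16 libraries. Permutation tests with 100000 permutations gave two-sided p = 0.596, 0.467, 0.692, 0.479 and 0.398 for r, and p = 0.585, 0.476, 0.874, 0.686 and 0.661 for rho. Among the cluster copies r was -0.45 for hsp-16.1 (p = 0.0837, rho -0.36), -0.42 for hsp-16.49 (p = 0.103, rho -0.40), -0.35 for hsp-16.48 (p = 0.193, rho -0.28) and -0.13 for hsp-16.11 (p = 0.633, rho 0.071), by the same permutation tests, with p = 0.166, 0.123, 0.293 and 0.795 for rho. For hsf-1, r was -0.54 (p = 0.0315) and rho -0.60 (p = 0.0163), with adjusted p = 0.315 and 0.163 over the 10 genes examined by the same permutation tests. Without double mutant replicate 4 and edc-4 replicate 4, the libraries farthest from the median score, r was -0.52 for hsf-1, -0.063 to -0.0076 for the 5 well-counted inducible genes, -0.22 for hsp-16.1, -0.17 for hsp-16.49, -0.029 for hsp-16.48 and 0.21 for hsp-16.11. With genotype means removed, r was -0.49 for hsf-1. No relation passed after adjustment for 10 genes, the next lowest adjusted p for r being 0.345 for hsp-16.1 and hsp-16.49 by the same permutation tests.

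The first comparison asked how the genes stood in the edc-3 mutant relative to WT. For hsp-16.41 the edc-3 mean was 22.6 ± 6.99 CPM against 15.9 ± 9.66 CPM for WT, and means in that order were 6.86 ± 2.90 and 4.62 ± 2.99 CPM for hsp-70 and 25.4 ± 5.30 and 16.8 ± 5.41 CPM for F44E5.5 (SD, n = 4 each). Log2 fold changes were 0.26 (SE 0.45) for hsp-16.2, 0.51 (SE 0.45) for hsp-16.41, 0.57 (SE 0.48) for hsp-70, 0.56 (SE 0.29) for F44E5.4, 0.59 (SE 0.29) for F44E5.5 and 0.06 (SE 0.09) for hsf-1. All 10 were above 0, with a median of 0.55, where the median over all tested genes was -0.0046 and 48.9% of genes were above 0. No gene of the 10 separated the libraries of edc-3 from those of WT without overlap, as 1.91% of all genes did. These values were known when the genes were chosen and support nothing. Without WT replicate 4 the values were 0.80 for hsp-16.2, 0.99 for hsp-16.41 and 1.09 for hsp-70, and without WT replicate 5 hsp-16.2 was at 0.04.

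In the edc-4 mutant none of the 10 genes was called different from WT. Apart from hsp-16.49, the inducible genes had their lowest mean level of the 4 genotypes in edc-4. The share of all genes with their lowest mean there was not computed. As the well-counted genes rose and fell together between libraries, they are not separate observations. Means in edc-4 were 7.13 ± 2.53 CPM for hsp-16.2, 11.2 ± 5.21 for hsp-16.41, 2.95 ± 1.11 for hsp-70, 9.92 ± 2.70 for F44E5.4 and 15.03 ± 4.32 for F44E5.5 (SD, n = 4 each). Against WT, hsp-16.2 had a log2 fold change of -0.65 (95% interval -1.61 to 0.31, edgeR adjusted p = 0.831) and hsp-70 one of -0.66 (-1.68 to 0.36, adjusted p = 0.831). For F44E5.5 it was -0.16 (-0.77 to 0.44, adjusted p = 0.897), and for hsf-1 -0.02 (-0.22 to 0.18, adjusted p = 0.968). The intervals for hsp-16.2 and hsp-70 include a change of either sign, while that of hsf-1 is narrow. Of the 10 genes 0 passed, where 0.142% of all genes did, and 0 had an unadjusted p under 0.05 (4.98% of all genes); DESeq2 called 0 as well. The groups overlapped for all 10, where 2.3% of all genes did not overlap. As a description, the median was -0.22 and 1 value of 10, that of hsp-16.49, was above 0 (50.8% of all genes). Without WT replicate 4, hsp-16.2 was at -0.11 and hsp-70 at -0.14, hsp-16.41 at -0.02, F44E5.5 at 0.02 and F44E5.4 at 0.03, and hsp-16.1 and hsp-16.48 were above 0, at 0.61 and 0.11.

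The double mutant had high means with wide error. They were 14.6 ± 10.9 CPM for hsp-16.2 (WT 11.15 ± 7.23), 21.5 ± 14.2 for hsp-16.41, 6.44 ± 4.93 for hsp-70, 16.16 ± 7.14 for F44E5.4 (WT 11.1 ± 3.84) and 24.2 ± 10.2 for F44E5.5 (SD, n = 4 each). Against WT the log2 fold change was 0.39 for hsp-16.2 (95% interval -0.56 to 1.34, edgeR adjusted p = 0.685) and 0.44 for hsp-16.41 (-0.50 to 1.38, adjusted p = 0.643). It was 0.48 for hsp-70 (-0.52 to 1.48, adjusted p = 0.638), 0.54 for F44E5.4 (-0.07 to 1.16, adjusted p = 0.461) and 0.52 for F44E5.5 (-0.08 to 1.12, adjusted p = 0.463). For hsf-1 it was 0.11 (-0.09 to 0.31, adjusted p = 0.586). None of the differences passed, and 1 library set the direction of several: without double mutant replicate 5, hsp-16.2 was at -0.23, hsp-16.41 at -0.08 and hsp-70 at -0.20, while F44E5.4 and F44E5.5 were at 0.22 and 0.26. Without WT replicate 4, hsp-16.2 was at 0.93, hsp-16.41 at 0.92 and hsp-70 at 1.004. The low-count hsp-16.49 had the largest difference, 1.23 (0.18 to 2.29, unadjusted p = 0.0246, adjusted p = 0.408 by edgeR).

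Of the 10 genes 0 passed in the double mutant against WT, where 0.207% of all genes did, and 1 had an unadjusted p under 0.05, where 11.5% of all genes did. DESeq2 called 0. The groups overlapped for all 10 genes, where 7.43% of all genes did not overlap. As a description, the median log2 fold change was 0.46 and 9 of 10 values were above 0 (48.8% of all genes). The WT libraries are those on which the genes were selected, so these counts support no direction.

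**Figure D5:**
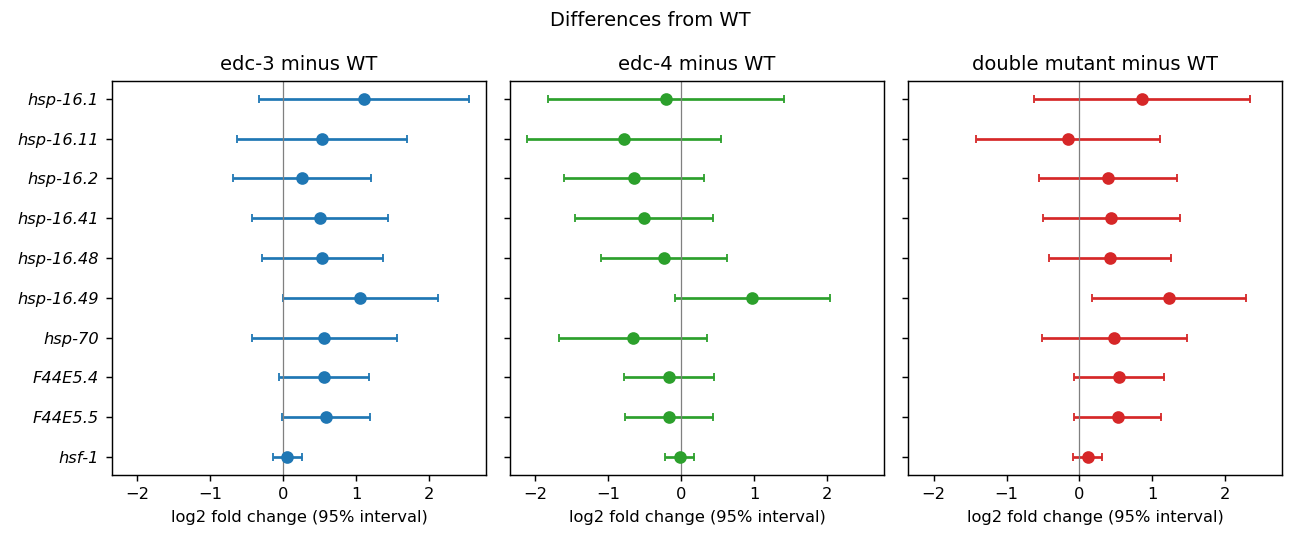
Log2 fold change of each mutant against WT (x axes) with its 95% interval from the edgeR fit for the 10 genes (y axis), n = 4 libraries a genotype. In edc-3, shown as a description, and in the double mutant most values are above 0 and in edc-4 most are below 0; in edc-4 and the double mutant every interval except that of hsp-16.49 in the double mutant includes 0, and hsf-1 lies at 0.06, -0.02 and 0.11.

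The double mutant was also set against edc-4, a comparison of 2 groups that include neither the WT nor the edc-3 libraries. Its SE and p-values still rest on a spread estimated from all 16 libraries. All 10 values were above 0, with a median of 0.70, where 47.5% of all genes were above 0. The well-counted inducible genes rose and fell together between libraries, so counts of them here are not counts of independent genes. Relative to edc-4, the double mutant had a log2 fold change of 1.04 for hsp-16.2 (SE 0.46, unadjusted p = 0.0354), 0.95 for hsp-16.41 (SE 0.45, unadjusted p = 0.0502) and 1.14 for hsp-70 (SE 0.49, unadjusted p = 0.0304) by edgeR. For F44E5.4 and F44E5.5 it was 0.71 (SE 0.29, unadjusted p = 0.0273) and 0.69 (SE 0.29, unadjusted p = 0.0280), and for hsf-1 0.13 (SE 0.09). The 4 inducible genes with an unadjusted p under 0.05, which was met by 2.81% of all genes, each had an edgeR adjusted p = 0.9999, so none passed (0.0296% of all genes did), and DESeq2 called 0. The groups overlapped for all 10 genes (2.1% of all genes did not). Without double mutant replicate 5 the values were 0.42 for hsp-16.2, 0.43 for hsp-16.41, 0.47 for hsp-70, 0.39 for F44E5.4 and 0.43 for F44E5.5. In the same order, the SD of log2 CPM within genotypes over all 16 libraries was 0.753, 0.757, 0.781, 0.479 and 0.4745. That SD describes single libraries, the one left out among them, and is not the error of a difference of means.

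The remaining comparisons include the edc-3 libraries and are described with no test. The double mutant against edc-3 had log2 values of 0.12 for hsp-16.2, -0.07 for hsp-16.41, -0.09 for hsp-70, -0.02 for F44E5.4, -0.07 for F44E5.5 and 0.05 for hsf-1. The interaction of both alleles, the log2 difference between the effect of edc-3 with and without edc-4, was 0.78 (SE 0.64) for hsp-16.2 and 0.58 (SE 0.68) for hsp-70. Of the 10 values, 3 were above 0 in the former (49.1% of all genes) and 8 in the latter (45.5%). No gene of the 10 separated the double mutant from edc-3 without overlap, as 4.39% of all genes did. Without double mutant replicate 5, the log2 values against edc-3 were -0.49 for hsp-16.2, -0.58 for hsp-16.41 and -0.75 for hsp-70. Levels in the single mutants side by side did not overlap for F44E5.4, at 12.96 to 20.3 CPM in edc-3 and 6.90 to 12.7 CPM in edc-4, and for F44E5.5, at 20.9 to 31.4 and 10.3 to 19.5 CPM. That made 2 of 10 genes, where 2.83% of all genes did not overlap between these genotypes. These 2 genes are a divergent pair that moved together and may share reads, so they are not separate observations. The edc-3 libraries also entered the choice of genes, and the count supports nothing.

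By mean level, the order for hsp-16.41, hsp-70, F44E5.4 and F44E5.5 was edc-3, the double mutant, WT and edc-4. For hsp-16.2 the double mutant came before edc-3. Neighbours in this order overlapped for each of these genes. For hsf-1 the order was double mutant, edc-3, WT and edc-4, with means of 101 ± 7.34, 97.3 ± 5.93, 93.5 ± 8.59 and 92.3 ± 6.51 CPM (SD, n = 4 each). The genotype means of hsf-1 spanned 0.131 in log2 CPM, slightly more than the SD within genotypes of 0.108, and all genotypes overlapped. Without TMM scaling the first places changed, with hsf-1 at 98.6 CPM for edc-3 against 98.4 CPM for the double mutant.

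Other genes of the pathway and of related stress responses were read from 9 lists with 101 genes, of which 98 were tested. A set of 4 DNAJ genes stood in a second list as well. Against WT, 0 of 98 passed by edgeR in each single mutant, while the double mutant had 0 higher and 1 lower, as by DESeq2. An unadjusted p under 0.05 was met by 5 genes for each single mutant and by 15 for the double mutant. Over all genes, 0.142% passed and 2.65% had an unadjusted p under 0.05 in edc-3. The 1 gene lower in the double mutant was hmit-1.1, a proton and myo-inositol transporter gene induced by osmotic stress. Its level was 3.13 ± 0.844 CPM in the double mutant against 8.74 ± 1.82 CPM for WT (SD, n = 4, log2 -1.48, edgeR adjusted p = 0.0294). The other small heat shock genes had median log2 values against WT of -0.02, -0.11 and -0.18 for edc-3, edc-4 and the double mutant over 11 genes. Among them sip-1, a small heat shock gene of embryos, had means of 232 ± 93.6, 300.0 ± 75.0, 275 ± 25.2 and 382 ± 131 CPM (SD, n = 4 each, genotypes in the order above: WT, edc-3, edc-4, double mutant). The genes hsp-12.1 and hsp-12.2 had WT means of 53.8 ± 17.95 and 53.96 ± 14.9 CPM (SD, n = 4). None of these genes passed in edc-4 or the double mutant.

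Constitutive chaperones varied little. The HSP70 gene hsp-1 had means of 729 ± 84.3, 841 ± 123, 784 ± 173 and 769 ± 193 CPM in that order, and daf-21 had 1172 ± 162, 1238 ± 150, 1184 ± 175 and 1193 ± 164 CPM (SD, n = 4 each). Their list of 12 genes, which includes hsp-110 and co-chaperones, had medians of log2 0.07, 0.09 and 0.11 in edc-3, edc-4 and the double mutant. The 29 DNAJ genes, whose products deliver clients to HSP70, had medians of 0.0083, 0.10 and 0.16, with dnj-19, dnj-5 and dnj-29 the most abundant. The 8 subunit genes of the cytosolic chaperonin had medians of 0.10, 0.08 and 0.09, with cct-5 at 254 ± 27.1 CPM for WT against 270.3 ± 32.3 CPM for the double mutant. Their next most abundant members, cct-1 and cct-3, averaged 226 and 216 CPM. In each of these lists 0 genes passed in edc-4 or the double mutant.

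Among regulators of HSF-1, 7 of 8 were tested and 0 passed in edc-4 or the double mutant. They included hpk-1, a kinase gene, jmjd-3.1, a histone demethylase gene, and the acetyltransferase gene cbp-1, which had means of 887, 917, 876 and 870.1 CPM by genotype. Genes of the endoplasmic reticulum chaperones had medians of log2 0.11, 0.07 and 0.07 over 10 genes, with hsp-3, crt-1 and pdi-2 at means of 1944, 2298 and 2080 CPM. Mitochondrial chaperone and stress genes had medians of -0.03, 0.07 and -0.05 over 10 genes, with hsp-60 at 289.9 ± 30.5 CPM for WT against 257 ± 58.1 CPM for the double mutant, and hsp-6 and lonp-1 at means of 258 and 107 CPM. Metal and oxidative stress genes had medians of 0.16, -0.03 and -0.22 over 11 genes. As a description with no test, the glutathione S-transferase gene gst-4 was at 7.10 ± 2.26 CPM for WT and 14.2 ± 2.67 CPM for edc-3 (SD, n = 4 each, log2 1.005). The genes gcs-1 and ctl-2 averaged 91.6 and 63.5 CPM. Osmotic stress genes had medians of 0.06, -0.40 and -0.33 over 4 genes, among them gpdh-2, nlp-29 and gpdh-1 at means of 134, 6.54 and 6.53 CPM.

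Genes most like the members were sought among 9607 other genes with a mean of at least 5 CPM, by the correlation of log2 CPM over the 16 libraries. For the summed hsp-16 genes, which ran from 12.16 to 72.9 CPM, these were Y43F8B.2 (r 0.848, rho 0.853), R11F4.1 (r 0.779, rho 0.732), F21C10.10 (r 0.777, rho 0.862), the noncoding RNA gene tts-1 (r 0.766, rho 0.735) and the glutathione peroxidase gene gpx-2 (r 0.764, rho 0.759). F21C10.10 lies on chromosome V at 9096267 to 9097220, beyond the hsp-16.11 end of the cluster. With genotype means removed, tts-1 came first (r 0.943), rising from 5.58 to 28.7 CPM over the libraries. With 2 libraries left out and genotype means kept, r fell to 0.578 for tts-1, 0.661 for R11F4.1 and 0.669 for F21C10.10. It was then 0.752 for Y43F8B.2 and 0.760 for gpx-2, so these likenesses depended in part on 2 libraries. For the summed HSP70 genes, at 19.1 to 74.8 CPM, the likest were Y43F8B.2 (r 0.832, rho 0.853), R11F4.1 (r 0.777, rho 0.774), M01H9.3 (r 0.754, rho 0.662), gpx-2 (r 0.753, rho 0.791) and lact-4 (r 0.739, rho 0.765). For hsf-1 they were Y48G1A.1 (r 0.913, rho 0.835), T05H10.1 (r 0.907, rho 0.912), F58A4.2 (r 0.906, rho 0.871), the hexokinase gene hxk-1 (r 0.90, rho 0.924) and the RNA-binding protein gene rop-1 (r 0.895, rho 0.888). The sets for hsf-1 and for the inducible genes shared no gene. These correlations are descriptions over 16 libraries that share genotype groups, and they carry no test.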

How the data were processed

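The deposited table gives raw counts of reads for each gene in each of 16 libraries. Per the submitters' processing notes, Trimmomatic, STAR and HTSeq were used with WBcel235, and, per the labels' protocols, libraries came from a stranded total RNA kit. No source used here gives the strand or multiple-mapping setting. Groups are the genotype labels, which name independent biological replicates. Positions and exon lengths came from an Ensembl annotation of WBcel235, which held 46364 of the 46726 identifiers.

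Counts were analysed in R 4.3.3 with edgeR 4.0.16. After filterByExpr (minimum count 10, minimum total 15) and TMM scaling, all 16 libraries entered 1 quasi-likelihood fit with a mean per genotype. Benjamini-Hochberg adjustment ran over 16880 genes, with a threshold of 0.05. The 95% intervals use the fit's degrees of freedom, and log2 CPM a prior count of 2. The fit was tested on simulated data. DESeq2 1.42.0 was an alternative. The members and lists were chosen with earlier results of these data known. All members were named, with list genes that passed or were among the 3 most abundant and the 5 likest genes per target. Precision is limited by counting for members with few counts.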

Additional observations from a re-analysis of the deposited data

Results flagged for a closer look

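Of 40 sets of 4 libraries (10 genes in 4 genotypes), 1 held a library far from the others. The hsp-16.1 level in edc-4 replicate 4 was 0.275 CPM, from 10 counts, where the other edc-4 libraries lay between 0.022 and 0.060 CPM. The gap to the next library was 0.849 of the range of the 4 values, a size that chance gives in about 1 set of 20. A flag in 1 of 40 sets does not exceed that rate, which is only approximate at 1 to 10 counts a library. This library also had the lowest stage score of edc-4, 3.85, and over all 16 libraries hsp-16.1 had r of -0.45 with that score (two-sided permutation p = 0.0837, adjusted p = 0.345 over 10 genes), and -0.22 without this library and double mutant replicate 4.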

How the results depend on the processing

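No member was called in the 3 comparisons tested (edc-4 and the double mutant against WT, and the double mutant against edc-4) under any alternative run, among them no filter, no TMM scaling, DESeq2, a stage covariate and leaving out libraries. Over 157 recomputed values in each, the lowest adjusted p was 0.293. The count of genes called over the whole table moved more: from 24 to 12 to 40 in edc-3 against WT, 24 to 7 to 48 in edc-4 against WT, and 35 to 8 to 110 in the double mutant against WT (lowest and highest over the alternatives).

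The replicate numbers were not taken to pair libraries. Deviations of same-numbered libraries correlated by -0.49 to 0.66, above 0.1 in 2 of 12 pairs with WT and in 9 of 12 pairs among the mutants; between edc-4 and the double mutant they ran from -0.054 to 0.66, so not every pair exceeded 0.1. With the replicate number as a block, 0 members were called, hsp-16.2 in edc-4 against WT was at log2 -0.60, and in the double mutant against edc-4 hsp-16.2 was at 0.98 and hsp-70 at 1.11 (adjusted p = 0.9998 by edgeR).

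Leaving out 1 library at a time turned the direction of uncalled log2 fold changes. In edc-4 against WT the values ran from -1.18 to 0.61 for hsp-16.1, -0.63 to 0.11 for hsp-16.48, -0.32 to 0.034 for F44E5.4, -0.31 to 0.023 for F44E5.5 and -0.071 to 0.034 for hsf-1. In the double mutant against WT they ran from -0.55 to 0.18 for hsp-16.11, -0.23 to 0.93 for hsp-16.2, -0.083 to 0.92 for hsp-16.41 and -0.20 to 1.004 for hsp-70, and against edc-4 from -0.11 to 0.73 for hsp-16.49. Leaving out both WT replicate 4 and double mutant replicate 5, an alternative chosen after seeing the data, gave 0.60 for hsp-16.1, 0.11 for hsp-16.48, 0.030 for F44E5.4 and 0.019 for F44E5.5 in edc-4 against WT, and -0.11 for hsp-16.49 in the double mutant against edc-4. DESeq2 put hsf-1 in edc-4 against WT at 0.00747. The cause was not tested. Counts of 1 to 15 limit hsp-16.1 and hsp-16.11.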
